A study of Homo sapiens with 6 samples.

Results

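Short retained introns of 101 to 300 nt were measured in human HEK293A-TOA cells after knockdown of the splicing regulator SFSWAP. Members were the introns of the retained intron table with that length (downstream exon start minus upstream exon end) and a mean of at least 20 junction reads per library over the 6 libraries. There were 6137 such introns in 2831 genes, each at a distinct position, of 21158 introns in the table and of 12867 with that depth. Knockdown cells (siSFSWAP, 3 libraries) were given 40 nM of pooled siRNAs that target SFSWAP and the control cells (siNT, 3 libraries) a non-target siRNA, and RNA was taken from both after 5 days. HEK293A-TOA is a line of human embryonic kidney origin, so all 6 libraries share 1 genetic background, and no inhibitor was added to either group. Polyadenylated RNA was sequenced. The libraries are labelled as biological replicates, and are called a, b and c here in the order in which the table lists them, which pairs none of them across groups. Where a group has 3 values, they are those of its libraries in that order.

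An intron is removed when the spliceosome recognises its 5′ and 3′ splice sites and joins the flanking exons. In a short intron both sites can be recognised across the intron itself, whereas in genes with long introns they are recognised across the exon. A retained intron stays in a polyadenylated RNA. Such RNAs can be held in the nucleus as detained introns and spliced later, or can reach the cytoplasm and be degraded where the intron brings in a stop codon. SFSWAP is a nuclear protein related to the SR family of splicing regulators. The question asked of these libraries was whether short introns were removed more or less completely when SFSWAP was reduced.

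The value for each intron is inclusion, the percent that keep the intron among transcripts that either keep it or join its flanking exons directly. It was computed from the reads that cross an exon to intron boundary (inclusion reads) and the reads that join the exons (spliced reads), each divided by its effective length of 198 or 99 nt. Of the 6137 members, 4900 in 2546 genes were tested, and they made up 48.3% of the 10155 tested introns. The other 1237 were left out because fewer than 5 spliced reads (1147 introns) or fewer than 5 inclusion reads (90 introns) were found over all libraries, and their median inclusion was 99.0%. Of these untested introns 899 were not introns of the GENCODE annotation, against 295 of the tested ones. The tested members had a median length of 162 nt (quartiles 124 and 218 nt) and 98.2% had GT at the 5′ end with AG at the 3′ end. By annotation 4106 lay within coding sequence, 133 in a 5′ UTR, 25 in a 3′ UTR and 341 in non-coding transcripts.

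The libraries differed in depth and in the level of short introns. Members held 1186148 to 1916175 junction reads in each siSFSWAP library, against 1192662 to 3205847 in the siNT libraries, and library a was the deepest in both groups. The titles number the samples of both groups alike, but the table does not say which library has which number. The siNT library a also lay apart from siNT libraries b and c in the results below, toward the siSFSWAP libraries, so counts are given with each library left out. SFSWAP itself had 34.7, 34.6 and 21.3 spliced reads per 1000000 (CPM) in siSFSWAP, against 79.7, 86.5 and 80.2 in siNT, which places every siSFSWAP library below every siNT library (log2 change −1.46, SE 0.16, limma adjusted p 0.000353). These sums come from the skipped exon table, which lists a gene only if it has a skipped exon event. Of 14 genes listed as markers of HEK293 cells 6 were in it (KRT8, KRT18, VIM, CDH2, GATA3, PODXL), with summed levels of 398 to 463 CPM in siSFSWAP and 452 to 548 CPM in siNT. The other 8, among them PAX2 and LHX1, were not listed there. Of 12 markers of blood, liver, muscle, endothelial and other cells 3 were listed (MBP, COL1A1, GFAP), with sums of 3.24 to 3.86 CPM in siSFSWAP and 2.30 to 3.59 CPM in siNT.

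Among the short introns, nearly every call was toward lower inclusion in siSFSWAP. A call needed an adjusted p of at most 0.05 (quasi-binomial F test over all 10155 introns, Benjamini-Hochberg) and a difference in mean inclusion of at least 20 percentage points. By this rule 87 of 4900 members (1.78%) in 78 genes fell and 2 (0.0408%) rose. Over all tested introns 1.64% were called lower and 0.138% higher, so the share of members called lower was near that of all introns. A fall of 20 points needs an siNT inclusion of at least 20%, which 1482 members had. Of these 87 (5.87%) fell, against 5.11% of all tested introns at that level. By the adjusted p alone 149 members were lower and 5 higher in siSFSWAP. The 87 introns formed 84 stretches that did not overlap each other, since YDJC, GATD1 and RPL8 each had 2 called introns that shared sequence. In the 87, the median inclusion was 17.9%, 20.7% and 20.9% in siSFSWAP, against 38.4%, 54.2% and 65.5% in siNT.

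The number of calls depended on which libraries entered the fit. Without siNT library a, 255 members were called lower, among them 85 of the 87. The count was 26 with siNT library b left out and 54 with siNT library c left out. Leaving out siSFSWAP library a, b or c gave 15, 42 or 19. With limma on the log2 odds of inclusion no member was called (smallest adjusted p 0.0543), although 678 were lower and 121 higher at an unadjusted p under 0.05, against 638 and 88 by the quasi-binomial test. Calls for introns of HMGN1, YDJC, MFSD10, MRPS18A, SORBS3, PGGHG and AUP1 (the intron of 241 nt) were kept whichever library was left out, and these 7 were the only ones of the 87.

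The 6 introns printed here are those within coding sequence with the largest falls among called introns that had a mean of at least 50 reads and no overlap between the groups. They are shown to let the base composition of the introns that fell be seen. All come from GRCh38 and are given 5′ to 3′ on the strand of the gene, whole, from the first to the last base of the intron, with runs of 3 or more G (GGG) or 3 or more C (CCC) in capitals. HMGN1 is on the minus strand (chr21:39348340-39348544), NDOR1 on the plus strand (chr9:137214069-137214203), WDR90 on the plus strand (chr16:650363-650538), SARS2 on the minus strand (chr19:38915907-38916036), ABHD11 on the minus strand (chr7:73737111-73737220) and SGSM3 on the plus strand (chr22:40407569-40407788).
HMGN1: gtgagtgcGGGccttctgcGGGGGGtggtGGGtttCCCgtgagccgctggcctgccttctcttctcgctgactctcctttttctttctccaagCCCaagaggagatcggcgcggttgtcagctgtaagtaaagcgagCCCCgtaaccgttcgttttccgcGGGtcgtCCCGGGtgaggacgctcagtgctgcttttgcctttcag
NDOR1: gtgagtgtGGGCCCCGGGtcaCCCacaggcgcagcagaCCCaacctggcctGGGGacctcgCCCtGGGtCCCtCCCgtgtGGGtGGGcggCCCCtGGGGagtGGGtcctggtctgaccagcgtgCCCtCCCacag
WDR90: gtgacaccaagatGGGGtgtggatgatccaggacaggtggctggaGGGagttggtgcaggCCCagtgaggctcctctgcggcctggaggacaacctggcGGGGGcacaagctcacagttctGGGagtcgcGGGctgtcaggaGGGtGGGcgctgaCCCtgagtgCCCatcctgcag
SARS2: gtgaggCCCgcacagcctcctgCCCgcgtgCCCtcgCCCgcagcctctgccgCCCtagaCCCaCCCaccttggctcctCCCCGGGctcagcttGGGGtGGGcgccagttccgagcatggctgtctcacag
ABHD11: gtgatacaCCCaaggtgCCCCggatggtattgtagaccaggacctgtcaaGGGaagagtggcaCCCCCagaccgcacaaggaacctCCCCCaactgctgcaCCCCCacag
SGSM3: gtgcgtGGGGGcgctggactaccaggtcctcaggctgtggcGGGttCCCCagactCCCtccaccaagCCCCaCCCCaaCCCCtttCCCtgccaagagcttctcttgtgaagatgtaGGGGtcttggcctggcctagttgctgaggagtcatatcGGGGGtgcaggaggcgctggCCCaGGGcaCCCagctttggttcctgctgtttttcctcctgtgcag
The GC content of these introns was 60.5% in HMGN1, 73.3% in NDOR1, 65.3% in WDR90, 72.3% in SARS2, 60.9% in ABHD11 and 62.7% in SGSM3, all above the median of 56.4% over the tested members. Runs of G or C covered 55 of 135 bases in the NDOR1 intron and 31 of 205 in the HMGN1 intron. A run of 3 or more G was found in 93.1% of the 87 introns that fell and in 88.1% of all tested members, searched on the gene's strand only, and a run of 3 or more C in 98.9% and 86.3%. In the uncalled members with at least 20% siNT inclusion each kind of run was found in 91.0%. The match of a run is a description of the sequence and marks no known binding site.

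The largest well-covered falls, chosen to have no overlap between the groups, were in genes of very different function. HMGN1 encodes a nucleosome-binding chromatin protein. Its intron 2 was included at 49.5%, 55.6% and 44.4% in siSFSWAP, against 100%, 96.5% and 100% in siNT. In control cells hardly any of the counted reads joined the flanking exons directly, and the groups did not overlap. Transcripts spliced at other sites inside this stretch enter neither count, so their share is not known from these values. Inclusion fell by 49.0 points (adjusted p 0.000383, at most 0.00659 when any 1 library was left out). WDR90 encodes a WD-repeat protein of centrioles, and its intron 4 had 12.9%, 21.7% and 29.6% inclusion in siSFSWAP, against 45.6%, 69.5% and 78.0% in siNT. It fell by 42.9 points (adjusted p 0.00826), but the call was lost without siNT library b or siSFSWAP library a (adjusted p up to 0.135). TUBG2 encodes a gamma-tubulin. Its intron 7 (115 nt) had 30.9%, 35.1% and 39.7% inclusion in siSFSWAP and 63.6%, 71.1% and 73.6% in siNT libraries, which fell by 34.2 points (adjusted p 0.00826, lost without siNT library b or siSFSWAP library a, up to 0.111).

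NDOR1, a diflavin reductase that passes electrons to the assembly of iron-sulfur proteins, had intron 5 included at 31.3%, 29.4% and 21.4% in siSFSWAP, against 61.8%, 78.0% and 81.8% in siNT. The groups did not overlap, and inclusion fell by 46.5 points (adjusted p 0.00399, 0.0515 without siSFSWAP library c). SARS2 encodes the mitochondrial seryl-tRNA synthetase, and its intron 18 had 13.8%, 11.4% and 13.5% inclusion in siSFSWAP, against 38.3%, 49.2% and 75% in siNT. The siSFSWAP libraries lay close to each other while the siNT libraries were spread widely. It fell by 41.3 points (adjusted p 0.00585, lost without siSFSWAP library a or c, up to 0.0614), and a second protein-coding gene model overlaps it on the same strand. Intron 4 of ABHD11, a mitochondrial hydrolase gene, had 28.9%, 36.4% and 30.0% inclusion in siSFSWAP and 55.9%, 80.6% and 81.7% in siNT libraries, a fall of 41.0 points (adjusted p 0.00852, lost without siSFSWAP library a or c, up to 0.154). YDJC encodes a protein related to carbohydrate deacetylases. Its intron of 135 nt in a non-coding transcript had 44.2%, 47.0% and 52.3% inclusion in siSFSWAP, against 78.3%, 84.5% and 87.0% in siNT libraries. It fell by 35.5 points (adjusted p 0.000326, at most 0.0109 with any 1 library left out).

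Intron 6 of SLC29A2, an equilibrative nucleoside transporter gene, had 18.9%, 25.6% and 14.0% inclusion in siSFSWAP and 33.8%, 62.6% and 67.5% in siNT. It fell by 35.2 points (adjusted p 0.0351), and the call was lost without siNT library b or any 1 siSFSWAP library (up to 0.241). MFSD10, of the major facilitator family of transporters, had intron 7 included at 18.4%, 14.1% and 21.3% in siSFSWAP and 40.0%, 52.4% and 63.6% in siNT libraries. It fell by 34.1 points and kept its call whichever library was left out (adjusted p 0.00267, at most 0.0365). In AUP1, a protein of lipid droplets and endoplasmic reticulum degradation, an intron of 126 nt in a non-coding transcript had 32.5%, 20% and 35.6% inclusion in siSFSWAP and 50%, 72.8% and 76.0% in siNT libraries (fall of 36.9 points, adjusted p 0.0254, lost without siNT library b or any 1 siSFSWAP library, up to 0.163). It had a mean of 61.8 reads. A tested AUP1 intron of 188 nt that contains this stretch had a mean of 362.7 reads. It changed by −4.20 points and was not called (adjusted p 0.189). SGSM3 encodes a modulator of small GTPase signalling, and its intron 13 had 7.95%, 23.6% and 21.2% inclusion in siSFSWAP and 40.6%, 66.1% and 64.7% in siNT libraries. It fell by 39.6 points (adjusted p 0.00553, 0.108 without siSFSWAP library a), and a second protein-coding gene model on the same strand overlaps it. Intron 4 of PCNX3, a pecanex family membrane protein gene, had 16%, 23.9% and 22.7% inclusion in siSFSWAP and 44.2%, 51.0% and 73.7% in siNT libraries (fall of 35.4 points, adjusted p 0.00553, 0.147 without siSFSWAP library a). The intron of 102 nt in TMEM234, a membrane protein gene, had 60.5%, 49.0% and 41.5% inclusion in siSFSWAP and 80.2%, 91.3% and 100% in siNT libraries. It fell by 40.2 points (adjusted p 0.0211), and the call was lost without siNT library b or any 1 siSFSWAP library (up to 0.135).

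MAPK12, the gene of the p38 gamma kinase, had 2 called introns listed under its name. The one at chr22:50256647-50256787 (141 nt) had 20.4%, 16.5% and 15.5% inclusion in siSFSWAP and 45.7%, 56.5% and 51.2% in siNT libraries, a fall of 33.7 points (adjusted p 0.00637, 0.0507 without siSFSWAP library c). It lies in a non-coding transcript and had a mean of 50.5 reads. A tested MAPK12 intron of 288 nt that contains this stretch had a mean of 88.8 reads. It changed by −22.3 points and was not called (adjusted p 0.209). The other called intron, at chr22:50249455-50249634 (180 nt), lies where transcripts of MAPK12 and of the deacetylase gene HDAC10 overlap on the same strand. By annotation it is intron 6 of 19, and the neighbouring HDAC10 intron is 3 of 19, whereas the 141 nt intron is 5 of 11. Its numbering is thus that of HDAC10, and its reads cannot be taken as those of MAPK12. This intron fell by 49.7 points on a mean of 21.7 reads (adjusted p 0.0301). The neighbouring HDAC10 intron 3 (266 nt), which MAPK12 transcripts overlap too, fell by 50.8 points on 21.5 reads (adjusted p 0.0198, lost without siNT library b or siSFSWAP library a or c, up to 0.239). FTSJ1 encodes a tRNA methyltransferase, and intron 8 had 12.6%, 17.6% and 16.1% inclusion in siSFSWAP and 27.1%, 43.6% and 75% in siNT libraries. It fell by 33.1 points (adjusted p 0.0314) and kept its call only when siNT library a was the library left out (up to 0.253).

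**Figure D1:**
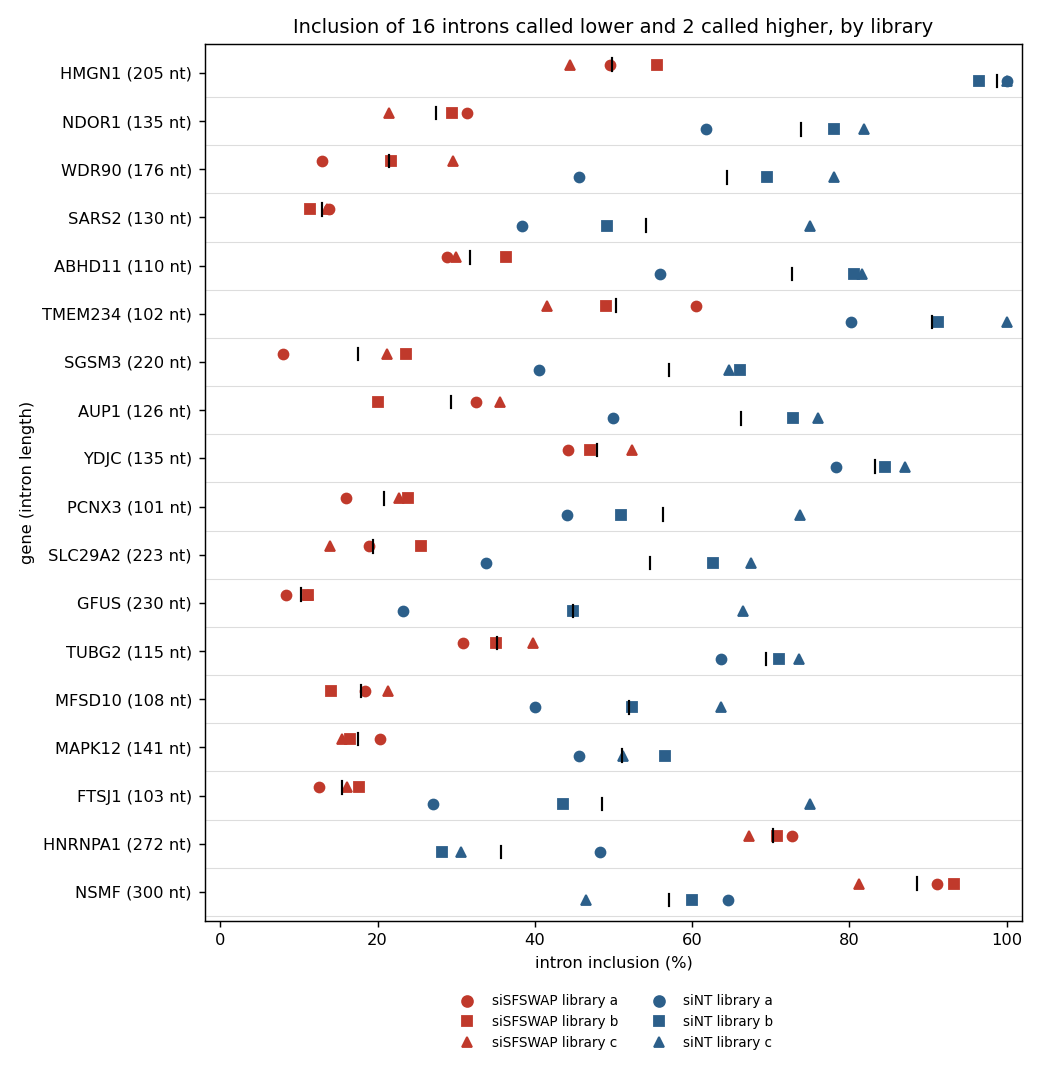
Inclusion in percent (x axis) of the 16 introns with the largest well-covered falls and the 2 introns that rose, with gene and length on the y axis. Each point is a library and black bars are means of 3. The 16 were chosen so that the siSFSWAP points lie below all siNT points, as HMGN1 at 44.4% to 55.6% against 96.5% to 100%.

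The 2 introns that rose ran against this direction. HNRNPA1 encodes an RNA-binding protein that acts in splicing, and its intron 8 (chr12:54283968-54284239, 272 nt, GC content 35.3%) had 72.7%, 70.8% and 67.3% inclusion in siSFSWAP, against 48.3%, 28.2% and 30.6% in siNT. It rose by 34.5 points (adjusted p 0.0158, lost without siNT library b or any 1 siSFSWAP library, up to 0.147). HNRNPA1 has near-identical copies elsewhere in the genome and a lncRNA overlaps on the same strand, and the part of either in this value was not tested. The intron of 300 nt in NSMF (chr9:137452436-137452735), a gene named for synaptic signalling to the nucleus, had 91.1%, 93.3% and 81.2% inclusion in siSFSWAP and 64.6%, 60% and 46.5% in siNT libraries. It rose by 31.5 points (adjusted p 0.0464), is not in the annotation, and kept its call only when siNT library a was the library left out (up to 0.297).

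The GDP-L-fucose synthase gene GFUS, on the minus strand of chromosome 8, had 3 tested members. Intron 10 (chr8:143612966-143613195, 230 nt) had 8.39%, 11.1% and 11.1% inclusion in siSFSWAP, against 23.2%, 44.9% and 66.4% in siNT. It fell by 34.6 points (adjusted p 0.0110, lost without siNT library b or siSFSWAP library a or c, up to 0.145). Intron 8 (147 nt) had 15.1%, 23.3% and 12.9% in siSFSWAP and 25.6%, 47.6% and 58.7% in siNT libraries (change −26.9 points, adjusted p 0.0626), and intron 5 (170 nt) changed by −13.2 points (adjusted p 0.341). The O-GlcNAc transferase gene OGT had 3 tested members, introns 11, 13 and 16 of 21. Their mean inclusion lay between 1.48% and 2.14% in siSFSWAP and between 1.27% and 2.18% in siNT, and none passed the test (adjusted p 0.673, 0.974 and 0.962). At these levels no fall of 20 points could have occurred.

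TPP1, which encodes the lysosomal protease tripeptidyl peptidase 1, was the gene with the most called members. Of its 7 tested members, introns 5, 7 and 8 fell. Intron 7 had 10.1%, 17.1% and 14.8% inclusion in siSFSWAP, against 23.4%, 44.7% and 69.0% in siNT (fall of 31.7 points, adjusted p 0.0290). Intron 8 had 2.80%, 14.5% and 7.85% in siSFSWAP and 22.8%, 39.8% and 48.0% in siNT libraries (fall of 28.5 points, adjusted p 0.0111), and intron 5 fell by 22.3 points (adjusted p 0.0288). All 3 were lost without siNT library b or siSFSWAP library a or c, and introns 5 and 7 also without siSFSWAP library b (up to 0.213). A lncRNA on the same strand overlaps introns 7 and 8. The other 4 members, introns 2, 4, 10 and 12, had changes between −6.06 and −11.3 points and none passed the test. Called introns were thus neighbours of uncalled ones in the same transcript. Over all 78 genes with a member that fell, 423 other introns were tested and not called, and of the 131 of these with a mean inclusion of 20 to 80% over the 6 libraries, 107 were lower in siSFSWAP (median change −14.4 points). In the same range 563 of all 727 members (77.4%, median change −10.4 points) and 1174 of all 1658 tested introns (70.8%) had lower means in siSFSWAP. In those genes 20 introns of other lengths were also called lower, among them introns 4 and 13 of NDOR1. Besides TPP1, the genes AUP1, GATD1, GTPBP2, MAPK12, NDOR1, RPL8 and YDJC had 2 called members each. Of those listed under MAPK12, 1 is numbered as an HDAC10 intron.

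Several of the most deeply covered introns were not called. The 6 uncalled members with the most reads at an siNT inclusion of 20 to 80% were in HNRNPM, NDUFB10, RPS13, SNHG29, CDK16 and EIF6. Intron 6 of HNRNPM, an RNA-binding protein gene, had a mean of 2772 reads and 57.8%, 55% and 54.1% inclusion in siSFSWAP, against 69.2%, 67.1% and 67.3% in siNT libraries. It was below the change threshold at −12.2 points but past the adjusted p (0.000110), as was intron 9 of the kinase gene CDK16 at −12.1 points (adjusted p 0.0211). NDUFB10, a subunit of respiratory complex I, had 21.1%, 23.7% and 25.5% in siSFSWAP and 26.1%, 42.6% and 52.0% in siNT libraries at intron 3 (change −16.8 points, adjusted p 0.0924). In the translation factor gene EIF6, intron 2 had 14.7%, 18.5% and 17.1% in siSFSWAP and 17.3%, 32.5% and 36.4% in siNT libraries (change −11.9 points, adjusted p 0.256), and siNT library a lay within the siSFSWAP range. Intron 1 of the ribosomal protein gene RPS13 had 52.1%, 49.4% and 50.1% in siSFSWAP and 50.7%, 45.8% and 44.9% in siNT libraries, with overlapping groups (change 3.41 points, adjusted p 0.655). Intron 2 of SNHG29, a host gene of snoRNAs, had 47.0% ± 1.61 in siSFSWAP and 48.5% ± 3.73 in siNT (SD, n = 3 each, adjusted p 0.985).

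The members were then counted in groups of genes by function, each beside the 1.78% of all tested members that fell. The gene lists were chosen with earlier results of these data known, so no group's share is an independent test. In the group of lysosomal and glycan-processing enzymes 7 of 51 members (13.7%) in 5 of 27 genes fell: 3 in TPP1 and 1 each in GFUS, RENBP, GNPTG and UAP1L1. Each of these 7 calls was lost in at least 1 fit that left a library out. All 11 members of this group with a mean of 20 to 80% over the 6 libraries had lower means in siSFSWAP (median change −25.8 points), beside 563 of 727 (77.4%, median −10.4 points) of all members in that range. RENBP, an epimerase of amino sugars, had 15.8%, 13% and 13.7% inclusion at intron 2 in siSFSWAP and 36.8%, 46.2% and 73.9% in siNT libraries, on a mean of 27.7 reads (change −38.1 points, adjusted p 0.0238). GNPTG, a subunit of the enzyme that tags lysosomal proteins, had 19.1%, 16.2% and 19.4% in siSFSWAP and 29.5%, 43.3% and 59.3% in siNT libraries (fall of 25.8 points, adjusted p 0.0444). In the MAP kinase cascade 3 of 31 members fell. They were both introns listed under MAPK12, of which the one of 180 nt is numbered as an HDAC10 intron, and 1 of MKNK2. In MKNK2, a kinase of the cap-binding factor eIF4E, intron 3 fell by 23.4 points (adjusted p 0.0271). Of 58 members in solute carrier genes 2 fell, in SLC29A2 and in the mitochondrial glutathione carrier gene SLC25A39 (fall of 29.2 points, adjusted p 0.0134). DNA repair genes had 2 of 95, in FANCA, of the Fanconi anaemia core complex (intron 40, fall of 26.0 points, adjusted p 0.0305), and in the helicase gene RECQL5 (fall of 22.9 points, adjusted p 0.0376). In the cytosolic ribosomal protein genes 2 of 124 fell, both overlapping introns of RPL8 in its 5′ UTR (104 and 225 nt, falls of 24.0 and 21.1 points, adjusted p 0.00310 and 0.0279). RPL8 has near-identical copies, and their part in these values was not tested. Each of these calls was lost with at least 1 library left out: RPL8 (104 nt) without siSFSWAP library a, FANCA, SLC25A39 and RPL8 (225 nt) without siNT library b or any 1 siSFSWAP library, and RENBP, MKNK2 and RECQL5 without any 1 library but siNT library a (adjusted p up to 0.261). The FANCA intron also overlaps ZNF276 on the opposite strand.

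Single calls were found in 7 more groups. These were 1 of 13 in mitochondrial ribosomal protein genes (MRPS18A), 1 of 24 in cyclin-dependent kinases and their partners (CDK10), 1 of 37 in the respiratory chain (the complex I assembly factor NDUFAF3), 1 of 41 in aminoacyl-tRNA synthetases (SARS2), 1 of 43 in snoRNA host genes (SNHG1), 1 of 47 in hnRNP genes (HNRNPL, beside the rise in HNRNPA1) and 1 of 135 in chromatin genes (HDAC10, in the stretch shared with MAPK12). Intron 4 of MRPS18A had 5.33%, 10.6% and 9.66% inclusion in siSFSWAP and 22.9%, 37.6% and 40.9% in siNT libraries, and fell by 25.3 points (adjusted p 0.00114, at most 0.0365 with any 1 library left out). HNRNPL encodes a splicing regulator, and its intron 7 was the deepest called member at a mean of 1494 reads. It had 11.3%, 11.3% and 8.4% inclusion in siSFSWAP and 25%, 34.4% and 37.7% in siNT libraries, a fall of 22.0 points (adjusted p 2.26e-05), which was 19.4 points without siNT library c. CDK10 intron 11 fell by 30.0 points (adjusted p 0.00553), NDUFAF3 by 24.5 points in an unannotated intron (adjusted p 0.0498), and SNHG1 intron 2, a non-coding RNA intron that overlaps SNORD26, by 22.5 points (adjusted p 0.00304). MRPS18A kept its call whichever library was left out, and the other 6 did not: HNRNPL was lost without siNT library c, CDK10 without siSFSWAP library a or c (adjusted p up to 0.0775), SNHG1 without siNT library a or siSFSWAP library c, and NDUFAF3 without any 1 library but siNT library a (up to 0.255).

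No member was called in 6 groups by either the quasi-binomial test or limma. At an unadjusted p under 0.05 the quasi-binomial test gave 4 lower and 0 higher of 43 members in SR and SR-related splicing protein genes, 5 and 1 of 80 in genes of the core spliceosome, and 1 and 2 of 37 in genes of the exon junction, mRNA export and nonsense-mediated decay. For zinc finger genes named ZNF these were 8 and 0 of 47, for DEAD and DEAH box helicases 9 and 1 of 72, and for proteasome subunits 0 and 0 of 47. Over all 4900 tested members they were 638 and 88. With 1.78% of all tested members called lower, groups of this size would hold few calls at that share. The median inclusion of members in proteasome genes was 3.54% in siSFSWAP and 3.42% in siNT, and only 1 of the 47 had an siNT inclusion of at least 20%, so hardly any could fall by 20 points. In SR genes 20 of 43 members were at that level, and their group's median was 17.2% in siSFSWAP and 16.1% in siNT.

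Across all members the shift was small, since most short introns were already removed almost completely. The median inclusion of the 4900 members was 5.65%, 6.26% and 6.21% in siSFSWAP, against 6.18%, 8.33% and 8.72% in siNT, and the groups overlapped (exact permutation test over libraries, two-sided, p = 0.3). With 3 libraries against 3 the smallest p this test can give is 0.1. In the 1852 members under 5% in siNT the median change was near 0 (−0.00680 points), and a fall of 20 points could not occur. The calls lay mostly at middle levels: 32 of 199 members with an siNT inclusion of 40 to 60% fell, 24 of 202 at 60 to 80%, 21 of 411 at 20 to 40%, 5 of 190 at 80 to 90% and 5 of 480 above 90%. In 801 members (16.3%) all siSFSWAP libraries lay below all siNT libraries, and in 194 (3.96%) above, against 15.3% and 6.02% of all tested introns.

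The members with room to move in both directions were set against introns of other lengths. For 727 members with a mean inclusion of 20 to 80% over the 6 libraries, a range chosen after seeing the data because it does not favour either group, the median was 30.4%, 34.1% and 30.6% in siSFSWAP, against 35.7%, 47.2% and 51.7% in siNT. All siSFSWAP medians were thus below all siNT medians (exact p = 0.1, the smallest possible). For 387 introns of 301 to 1000 nt they were 41.5%, 44% and 43.8% in siSFSWAP and 45.7%, 47.5% and 46.7% in siNT (exact p = 0.1), and for 151 introns over 1000 nt 44.1%, 41.9% and 39.1% in siSFSWAP and 40.0%, 40.7% and 42.8% in siNT (p = 0.8). Introns of up to 100 nt (393) had 24.4%, 27.8% and 26.9% in siSFSWAP and 29.8%, 43.4% and 48.4% in siNT (exact p = 0.1).

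The difference between classes was taken within each library, which removes what all introns of a library share. A difference between libraries that goes with GC content is not removed by it, and the classes differed in GC content. Among introns with a mean of 20 to 80% over the 6 libraries, median GC content was 64.79% up to 100 nt and 59.91% in members. It was 53.95% at 301 to 1000 nt and 43.97% over 1000 nt. The parts of length and of GC content in the values below were not tested. With introns chosen by an siNT inclusion of 20 to 80%, the median of members minus that of introns of 301 to 1000 nt was −14.4, −14.4 and −15.5 points in siSFSWAP, against −12.9, −2.40 and 0 points in siNT. The mean of this difference was 9.65 points lower in siSFSWAP (exact p = 0.1, 0.15 adjusted over 3 comparisons), 13.6 points lower without siNT library a, which lay close to the siSFSWAP values. With the wider range of 10 to 90% siNT inclusion the change was −6.12 points. Against introns over 1000 nt it was 12.4 points lower in siSFSWAP (exact p = 0.1, adjusted 0.15), and against introns of up to 100 nt 1.38 points higher (p = 0.2, adjusted 0.2), which is within the spread between libraries. With the range by the mean of all 6 libraries, the first difference was 9.60 points lower in siSFSWAP (exact p = 0.2, adjusted 0.3) and the groups overlapped. By count, 22 of 1781 introns of 301 to 1000 nt fell and 7 rose, 3 of 832 over 1000 nt fell and 4 rose, and 55 of 2642 of up to 100 nt fell and 1 rose. At the limits of the length class, 19 of 601 introns of 101 to 110 nt fell against 15 of 830 of 91 to 100 nt, and 2 of 110 introns of 291 to 300 nt fell against 3 of 116 of 301 to 310 nt. These differences were not tested.

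**Figure D2:**
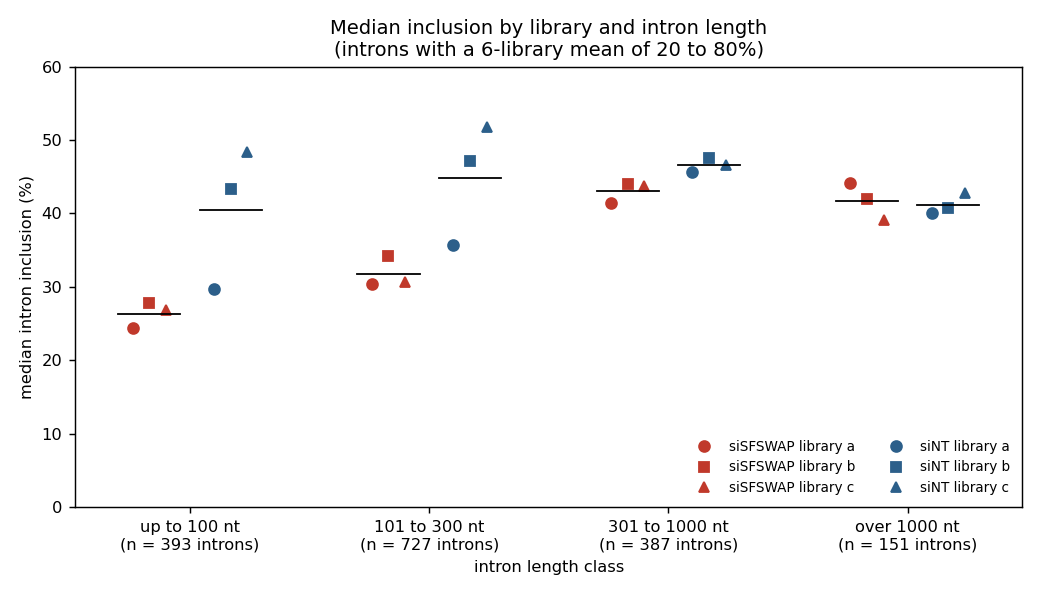
Median inclusion in percent (y axis) per library by intron length class (x axis) for introns with a mean of 20 to 80% over the 6 libraries, with a black bar at the mean of 3 libraries. At 101 to 300 nt the siSFSWAP libraries sit at 30.4% to 34.1% and the siNT libraries at 35.7% to 51.7%, with siNT library a lowest, while over 1000 nt the groups overlap.

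Within the class, calls and changes were counted by length and by base composition. Of 2128 members of 101 to 150 nt 44 fell (2.07%), of 1198 at 151 to 200 nt 15, of 965 at 201 to 250 nt 20 and of 609 at 251 to 300 nt 8. Members at 20 to 80% had median changes of −12.2, −12.7, −7.74 and −5.41 points in these 4 bins. For 97 such members with a GC content of up to 45% the median inclusion was 46.7%, 50% and 42.2% in siSFSWAP and 48.4%, 43.9% and 45.9% in siNT, with overlapping groups. For 124 members with 65 to 70% GC it was 30.6%, 33.3% and 29.1% in siSFSWAP, against 39.0%, 54.0% and 58.9% in siNT libraries, with no overlap. Called falls made up 3 of 1160 members of up to 45% GC (0.259%), 6 of 443 at 45 to 50% (1.35%), 5 of 639 at 50 to 55% (0.782%) and 15 of 801 at 55 to 60% (1.87%). They made up 24 of 924 at 60 to 65% (2.60%), 20 of 612 at 65 to 70% (3.27%) and 14 of 321 above 70% (4.36%). These shares include members too low to fall by 20 points. Among members at 20 to 80%, calls were 3 of 97 up to 45% GC, then 6 of 71, 4 of 78 and 13 of 122 up to 60%. They were 23 of 158 at 60 to 65%, 18 of 124 at 65 to 70% and 12 of 77 above 70%.

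Over the 727 members Spearman's rho of GC content with the change in inclusion was −0.32 (Pearson's r −0.33), a description across introns that share libraries and are not independent. GC content also went with the difference between control libraries: rho was −0.35 with inclusion in siNT library a minus the mean of siNT libraries b and c, and −0.11 with siSFSWAP library a minus the mean of siSFSWAP libraries b and c. The part of this in the GC pattern between the groups was not tested. Without siNT library a, rho of GC content with the change was −0.36.

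**Figure D3:**
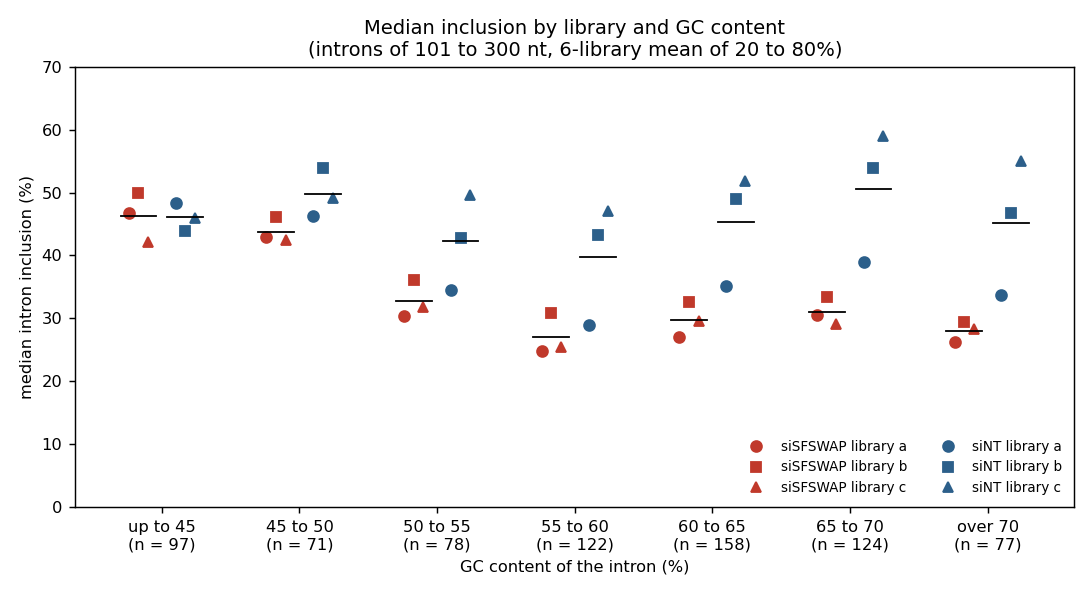
Median inclusion in percent (y axis) per library by GC content of the intron (x axis) for the 727 members with a mean of 20 to 80% over the 6 libraries, with a black bar at the mean of 3 libraries. Up to 45% GC the groups overlap. At 65 to 70% GC the siSFSWAP libraries lie at 29.1% to 33.3% and the siNT libraries at 39.0% to 58.9%. From 45% GC upward siNT library a is the lowest of the siNT libraries.

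The introns that fell could be described by other features of their sequence. The 87 had a median GC content of 63.9% (quartiles 58.7% and 68.2%), against 58.7% in the 1393 uncalled members with at least 20% siNT inclusion and 56.4% in all tested members. Their upstream exons had a median GC content of 61.7%, against 57.9% in those uncalled members. Runs of 3 or more C numbered 3.33 per 100 nt (median) in introns that fell and 2.26 in the uncalled ones, and runs of 3 or more G 2.92 and 2.45. The 5′ splice site, scored as the number of 9 positions that match the U1 snRNA consensus, had a median of 6 in introns that fell and 7 in the uncalled ones. Pyrimidines made up 70% of the 20 bases before the 3′ AG in both. All 87 were of the GT-AG kind. Of the 38 tested members that begin with GTATCC or ATATCC, as introns of the minor spliceosome do, none was called by the quasi-binomial test or by limma, and 4 had an unadjusted p under 0.05 (quasi-binomial).

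Most falls were in coding sequence. Of the 87, 71 (81.6%) lay there, close to 83.8% of all tested members and above the 50.6% of uncalled members with at least 20% siNT inclusion, of which 290 (20.8%) were unannotated. Retention would bring in an in-frame stop codon in 51 of the 71 (71.8%) and in 3372 of 4106 coding members (82.1%). Among coding introns of those uncalled members it would do so in 542 of 705 (76.9%). HMGN1, NDOR1, WDR90 and SGSM3 were among those with such a stop. The introns of MFSD10 (108 nt), HNRNPL (111 nt) and MRPS18A (222 nt) held none and have lengths that keep the frame. A second annotated gene overlapped 23 of the 87 introns. Chromosome 11 held 20 of the 87, or 4.61% of its 434 tested members, beside 1.78% of all tested members. The share was 5.51% on chromosome 8 (7 of 127), 5.26% on chromosome 21 (1 of 19), 4.08% on chromosome 22 (6 of 147) and 3.24% on chromosome 16 (11 of 340). On chromosomes 19 and 1 it was 1.24% (6 of 484) and 0.823% (4 of 486). Differences between chromosomes were not tested.

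Exons beside short introns were read from the skipped exon table, for events in which 1 of the 2 introns next to the exon was a tested member. Of 3749 such events 205 (5.47%) had higher exon inclusion in siSFSWAP and 45 (1.2%) lower, by the same thresholds and test, against 1.71% and 0.715% of all 48100 tested exon events. Beside the introns that fell, 22 of 88 events (22 exons in 10 genes) rose and none fell. In several of these genes the exons share an end, as 4 in NDOR1 and 4 in INPPL1 do. These counts are not independent of the introns, because the reads that join the exon to its neighbour are also spliced reads of the intron. Without siNT library a 339 events beside members rose, and without siNT library c 103. With limma on the log2 odds 77 rose and 21 fell.

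In MAPK12 the exon next to the intron of 141 nt (177 nt, chr22:50256788-50256964) had 88.2%, 91.7% and 71.4% inclusion in siSFSWAP, against 34.2%, 20.8% and 31.2% in siNT. Every siSFSWAP library lay far above every siNT library, and the exon rose by 55 points (adjusted p 1.43e-06, at most 3.08e-05 with any 1 library left out). In NDOR1 the exon before intron 5 (126 nt) had 74.2%, 90% and 100% in siSFSWAP and 61.3%, 28.2% and 17.6% in siNT libraries, and rose by 52.4 points (adjusted p 0.00108) on a mean of 23 reads. A version of 102 nt with the same end had a mean of 71.5 reads. That version had 92.2%, 97.6% and 100% in siSFSWAP and 87.5%, 56.9% and 47.2% in siNT libraries (rise of 32.7 points, adjusted p 0.00083). ISYNA1 encodes inositol-3-phosphate synthase. Its exon of 99 nt had 66.0%, 55.2% and 58.7% in siSFSWAP and 37.6%, 22.1% and 11.1% in siNT libraries (rise of 36.4 points, adjusted p 1.30e-06), while the intron beside it fell by 31.7 points. In INPPL1, which encodes the lipid phosphatase SHIP2, the exon of 97 nt had 95.0%, 88.9% and 96.2% in siSFSWAP and 71.0%, 55.5% and 45.4% in siNT libraries (rise of 36.0 points, adjusted p 2.08e-05). Exons in PCNX3, FANCA, MRPS18A, CHTF18 and AUP1 also rose, by 20.8 to 36.2 points. The calls of the MAPK12, ISYNA1 and INPPL1 exons and of the NDOR1 exons beside intron 5 were kept whichever library was left out, whereas at least 1 exon call in each of PCNX3, FANCA, MRPS18A, CHTF18 and AUP1 was not (adjusted p up to 0.17).

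**Figure D4:**
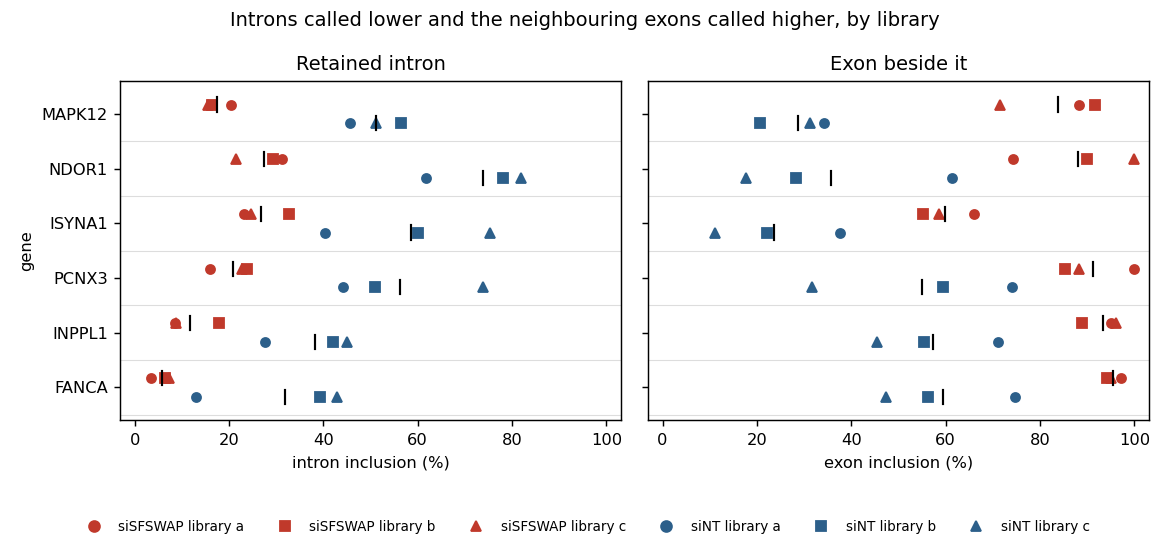
Inclusion in percent of the intron that fell (left panel) and of the exon beside it that rose (right panel) in the 6 genes with the largest exon rises, with 1 point per library and a black bar at each mean of 3. In MAPK12 the exon lies at 71.4% to 91.7% in siSFSWAP and 20.8% to 34.2% in siNT, and the intron at 15.5% to 20.4% and 45.7% to 56.5%.

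Junction reads of spliced exons, added up for each gene from the skipped exon table, gave a measure that does not use inclusion reads of introns. Of 2503 tested genes with a tested member 601 (24.0%) had higher and 431 (17.2%) lower spliced reads in siSFSWAP (limma, adjusted p at most 0.05), against 14.7% and 15.6% of all 10780 genes tested. Of the 76 tested genes with a member that fell, 48 (63.2%) were higher and 4 lower, and the median log2 change was 0.57, against −0.00 over all genes. The number of higher genes ranged over 38 to 52 in fits lacking 1 library and was 48 with median-of-ratios scaling. These sums hold spliced reads of the same introns where an exon event uses them, so they are not independent of the falls, and fewer spliced transcripts and less RNA of a gene cannot be told apart in them. An included exon adds reads at both of its ends, and a skipped exon only at the junction that leaves it out. Higher exon inclusion alone can thus raise a sum, and its part in these values was not tested. TPP1 had 99.4, 95.2 and 111 CPM in siSFSWAP, against 48.6, 37.2 and 24.8 CPM in siNT (log2 change 1.5, SE 0.19, adjusted p 0.000503). POLG, the mitochondrial DNA polymerase gene, had 197, 211 and 227 CPM in siSFSWAP and 116, 94.8 and 72.4 CPM in siNT libraries (log2 change 1.18, SE 0.14, adjusted p 0.000481), and its intron of 149 nt fell by 30.1 points. BCKDHA, a subunit of the branched-chain keto acid dehydrogenase, was higher by 1.57 on the log2 scale (SE 0.16, adjusted p 0.000340), and its member intron of 106 nt fell by 21.8 points. Neither of these intron calls was kept in every fit lacking 1 library. The 4 genes with lower sums were ATXN2L, BRPF1, DUSP8 and GRINA, with log2 changes between −0.75 and −0.29.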

How the data were processed

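Members and gene lists were chosen with earlier results of these data known. RNA of 3 siSFSWAP and 3 siNT cultures was sequenced from 1 end. Per the labels and methods, the authors used cutadapt 1.9.1 for trimming and STAR 2.7 for alignment (GRCh38, GENCODE 40), and rMATS counted junction reads. The deposited tables hold, for each event, unnormalised junction counts of both forms (lists of 3 libraries per group) and effective lengths in nt, which are values of other units than expression. The tables also hold the authors' inclusion levels, differences, p-values and FDR, which were not used. The tables number the groups, and group 1 was taken as siNT from the definition in the study's text, with SFSWAP reads as a check. There were 0 columns of other samples.

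Inclusion is inclusion counts over length divided by the sum of both forms over length. Introns averaging 20 or more reads a library, with 5 or more reads of each form in all, were fitted together by a two-sided quasi-binomial F test with dispersion moderated by limma 3.58.1 (R 4.3.3) and floored at 1, and Benjamini-Hochberg adjusted. The test was tested on simulated data. Calls took an adjusted p up to 0.05 together with a change of 20 points or more. Gene sums of spliced reads (1 event per exon, mean of at least 20 reads) were compared by limma-trend on log2(CPM + 0.5), in place of a planned negative binomial count test (edgeR), which was not run. Medians per library were compared by exact permutation. Introns were named by a rule: the 16 largest falls averaging 50 or more reads without overlap, 1 per gene; all rises; the 6 deepest uncalled at 20 to 80% siNT inclusion; GFUS and OGT; up to 3 calls for each of 18 gene lists; and genes with 3 calls or more. Genes named for called exons beside introns, for spliced reads, as POLG and BCKDHA, in GNPTG, UAP1L1 and NDOR1 introns 4 and 13, and for calls kept whichever library was left out were chosen after their values were seen. Annotation is GENCODE 44 on GRCh38. Depth was 1186148 to 3205847 junction reads over members per library, with a median of 71 to 185 reads per member. Whether the libraries keep strand is not stated in the sources used here, so overlapping genes are uncertain. Alternatives were limma on log2 odds, other minima of reads and change, other ranges of inclusion, other scaling and each library left out.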

Additional observations from a re-analysis of the deposited data

How the results depend on the processing

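No paired analysis was possible because the titles number the samples of both groups 1 to 3 but the table lists its libraries without those numbers. Of the 87 members called lower, the alternatives gave 0 by limma on log2 odds, 135 with no minimum for each form, 132 with a change of at least 10 points and between 15 and 255 with any 1 library left out (255 without siNT library a). The 2 called higher became 0 by limma and 1 at a minimum mean of 50 reads, and 0 to 10 with 1 library left out. Exons beside members called higher numbered 205, against 77 by limma, 129 at a minimum mean of 50 reads, 324 at a change of at least 10 points and 103 to 339 with 1 library left out. Those called lower numbered 45, against 21 by limma and 86 at 10 points. Genes with a tested member and higher sums numbered 601 (366 to 831 with 1 library left out), and with lower sums 431 (226 to 655). Members' median inclusion was 1.71 points lower in siSFSWAP, and the change was −13.1 points for members at 20 to 80% over the 6 libraries, an alternative added after seeing the data. Members minus introns of 301 to 1000 nt changed by −9.65 points, and by −6.12 points at a siNT inclusion of 10 to 90%. SFSWAP stayed lower in every fit. The intron 13 of OGT changed by 0.0406 points, and turned sign with 1 library left out (−0.254 to 0.363). Among the named introns, 98 of 276 fits with 1 library left out lost a call and 2 gained one. These 276 fits include those of named introns that were not called and had no call to lose, so the share among called introns was higher. The planned edgeR fit of the gene sums was not run. The median depth per member was 71 to 185 reads in a library, and the change detectable at a given depth was not measured.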
